A study of Mus musculus with 13 samples.

Results

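The 36 genes described here serve antigen presentation and co-stimulation. They were taken from a list of symbols and found as RefSeq transcripts in a count table of 24445 symbols, with the transcript of the most counts standing for each symbol. A filter on low counts kept 35 of the 36 in the test, with 11942 genes tested in all. The gene left out, *H2-DMb2*, had 0 to 13 counts per library. RNA-seq was done on bone marrow-derived macrophages (BMDMs), which are macrophages grown from marrow in medium conditioned by L929 fibroblasts. The donors were female mice, and LPS, a part of the outer membrane of Gram-negative bacteria that activates macrophages, was added for 3 h or 24 h. Control (AclyM-WT) mice carried floxed alleles of *Acly*, the enzyme that makes cytosolic acetyl-CoA from citrate, on a C57Bl/6J background. AclyM-KO mice carried in addition Cre under the myeloid *Lyz2* gene, which deletes the floxed part. All 4 groups received LPS, so no value of resting cells is given. Whether replicates came from separate mice is not given in the sources used here, so p-values measure the spread between these libraries only.

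The 12 libraries compared, 3 per group, held 21274102 to 59577343 counts. A 13th library, control 24 h replicate 1, held 34467 counts and was left out. It held 307 counts over the transcripts that stand for the members, at most 58 in any of them. Levels are given as CPM, the count scaled to the TMM-normalized library size, and where 3 values are given for a group they are those of replicates 1, 2 and 3, or of replicates 2, 3 and 4 for control at 24 h. *Acly* stood at 105, 107 and 106 CPM in control and 37.7, 46.2 and 41.5 CPM in AclyM-KO BMDMs at 3 h, a log2 fold change of -1.34 (SE 0.06, adjusted p = 6.41e-16), and at 113, 109 and 108 against 30.1, 30.5 and 29.1 CPM at 24 h, a log2 fold change of -1.88 (SE 0.06, adjusted p = 4.81e-20). Macrophage markers (8 genes, summed) held 9984 to 10080 CPM in control and 6915 to 7852 CPM in AclyM-KO at 3 h, and 6031 to 6333 and 4523 to 4627 CPM at 24 h. Without *Lyz2*, the gene that carries Cre, the other 7 summed to 4716 to 4860 and 4643 to 4908 CPM at 3 h. At 24 h they summed to 3635 to 3812 and 3579 to 3767 CPM, so that the sums of the genotypes overlapped. Single markers of the 7 went both ways. At 3 h *Adgre1* was higher in AclyM-KO without overlap, at 985.5 to 1056 against 832 to 882 CPM. *Cd14* (775.5 to 840.5 against 879 to 931 CPM) and *Fcgr1* (237 to 280 against 291 to 313 CPM) were lower there without overlap. *Mertk* was lower at 3 h (88.3 to 101 against 109 to 119.5 CPM) and 24 h (87.2 to 99.5 against 115 to 116 CPM). All other ranges of the 7 overlapped. Neutrophil markers (8 genes, among them *Ngp*, *S100a9* and *S100a8*, with *Ly6g* at 0) summed to 11.9 to 15.3 CPM at 3 h and 3.44 to 4.70 CPM at 24 h, and fibroblast markers (6 genes) to at most 1.502 CPM. All tests are edgeR quasi-likelihood tests across all transcripts with Benjamini-Hochberg adjustment. A gene was called at an adjusted p under 0.05 with a log2 fold change beyond 0.75, and calls at the adjusted p alone are given beside these for the genotype.

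MHC class I molecules, built from a polymorphic heavy chain and the light chain *B2m*, show peptides from the cytosol to CD8+ T cells. The peptides are cut by the proteasome, whose catalytic subunits are exchanged for *Psmb8*, *Psmb9* and *Psmb10* in the immunoproteasome, carried into the endoplasmic reticulum by the *Tap1* and *Tap2* transporter, and loaded with the help of tapasin (*Tapbp*) and the chaperones *Calr*, *Canx* and *Pdia3*. MHC class II molecules show peptides from endosomes to CD4+ T cells, with the invariant chain *Cd74* as their guide, and T cells also read co-stimulatory (*Cd80*, *Cd86*) and inhibitory (*Cd274*, *Pdcd1lg2*) ligands. *Nlrc5* and *Ciita* are the transactivators of class I and class II genes, and both act on promoters that hold an X box and an inverted CCAAT box.

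On GRCm38, 20 of the 36 members lie on chromosome 17, between positions 33915899 and 37274484, in and beside the mouse MHC. RefSeq promoter windows on GRCm38.p6, 250 bases before and 50 bases after the gene start, were found for 29 of the 36 members. No window was found for *Tap2*, *Tapbpl*, *Nlrc5*, *H2-Ab1*, *Cd74*, *Ciita* or *Cd86*. The NF-Y box CCAAT was found on either strand in 21 of the 29 (72.4%), against 41.1% of the 27025 symbols with a window. It was present in all 8 class I heavy chain windows and all 6 class II windows, and in 0 of the 3 co-stimulation windows. The X2 core TGACG was found in 13 (44.8%, against 23.05% of all), of which 6 belonged to class I heavy chains and 1 to class II. A kappaB motif, the binding site of NF-kappaB, was found in 11 (37.9%, against 9.55% of all), among them 7 of the 8 class I heavy chains. Exact matches to the interferon response motifs were rarer. The ISRE core (GAAA, any 2 bases and GAAA) was found in 5 (17.2%, against 3.99%), namely *H2-T22*, *H2-T23*, *B2m*, *Erap1* and *Psme1*, and the GAS motif TTCNNNGAA in 3 (10.3%, against 9.55%). These shares are descriptions of letters in a window and carry no test. Only exact matches to the patterns were counted. A site that departs from its pattern is missed, so a window without a match may still hold such an element.

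The 7 stretches that follow are RefSeq promoter sequences (GRCm38.p6), 5′ to 3′ along the gene, from 230 bases before the start to 20 bases from the start on, with matches to these 5 motifs on either strand in capitals. They are shown for the class I heavy chain, light chain and class II genes with the results described next, and for *Tap1*, which was not called in any comparison.
H2-K1, chr17:34000328-34000577, minus strand: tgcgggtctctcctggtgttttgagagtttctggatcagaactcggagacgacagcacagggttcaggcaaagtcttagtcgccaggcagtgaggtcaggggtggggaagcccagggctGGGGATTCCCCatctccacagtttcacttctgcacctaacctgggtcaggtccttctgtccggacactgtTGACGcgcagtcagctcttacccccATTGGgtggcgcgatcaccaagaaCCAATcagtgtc
H2-Q6, chr17:35424620-35424869, plus strand: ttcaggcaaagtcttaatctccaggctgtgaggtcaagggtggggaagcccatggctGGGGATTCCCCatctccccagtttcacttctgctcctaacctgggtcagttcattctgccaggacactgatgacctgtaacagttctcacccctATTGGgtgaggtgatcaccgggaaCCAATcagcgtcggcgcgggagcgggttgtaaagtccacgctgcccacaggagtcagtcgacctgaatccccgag
H2-Q7, chr17:35438925-35439174, plus strand: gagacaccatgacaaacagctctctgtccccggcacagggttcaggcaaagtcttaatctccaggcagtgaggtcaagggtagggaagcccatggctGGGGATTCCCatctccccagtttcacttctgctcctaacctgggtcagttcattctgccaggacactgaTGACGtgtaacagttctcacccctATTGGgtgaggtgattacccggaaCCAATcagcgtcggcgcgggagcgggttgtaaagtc
B2m, chr2:122147457-122147706, plus strand: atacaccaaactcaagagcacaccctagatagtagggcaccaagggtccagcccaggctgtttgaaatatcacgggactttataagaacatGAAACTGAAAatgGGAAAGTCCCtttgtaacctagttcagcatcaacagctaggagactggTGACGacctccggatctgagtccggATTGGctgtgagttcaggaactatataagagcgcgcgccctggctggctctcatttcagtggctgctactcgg
Tap1, chr17:34187326-34187575, plus strand: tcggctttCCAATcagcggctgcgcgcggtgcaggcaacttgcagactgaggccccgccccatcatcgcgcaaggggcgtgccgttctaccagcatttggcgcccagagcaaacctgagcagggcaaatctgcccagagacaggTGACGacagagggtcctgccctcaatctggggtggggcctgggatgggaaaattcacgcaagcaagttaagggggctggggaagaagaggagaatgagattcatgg
H2-Aa, chr17:34287804-34288053, minus strand: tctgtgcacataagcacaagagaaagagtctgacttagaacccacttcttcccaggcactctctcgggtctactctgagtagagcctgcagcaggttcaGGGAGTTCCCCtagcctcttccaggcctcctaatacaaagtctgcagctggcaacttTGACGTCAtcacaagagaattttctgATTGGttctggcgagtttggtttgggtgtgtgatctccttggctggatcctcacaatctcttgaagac
H2-Eb1, chr17:34305637-34305886, plus strand: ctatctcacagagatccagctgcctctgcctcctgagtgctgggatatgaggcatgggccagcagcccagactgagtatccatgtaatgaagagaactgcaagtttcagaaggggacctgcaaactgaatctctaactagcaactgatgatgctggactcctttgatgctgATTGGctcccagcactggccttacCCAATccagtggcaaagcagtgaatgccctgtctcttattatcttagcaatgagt

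*H2-K1*, *H2-Q6* and *H2-Q7* share a kappaB motif followed by an inverted and then a forward CCAAT box, and *H2-K1* and *H2-Q7* also hold the X2 core in front of the inverted box. The X2 core starts 25 bases before the inverted CCAAT box in *H2-K1* and in *B2m*, 24 bases before it in *H2-Q7* and 26 bases before it in *H2-Aa*. *H2-Q6* has no match to the X2 core, and *H2-Eb1* holds the pair of CCAAT boxes without it. In *H2-Aa* the X2 core overlaps its own copy on the other strand, and kappaB matches on both strands overlap in *H2-K1*, *H2-Q6*, *H2-Q7* and *H2-Aa*. The *Tap1* and *Psmb9* genes start back to back, and their 300-base windows have 275 bases in common, so the CCAAT box and the X2 core of the *Tap1* stretch are also those of *Psmb9*.

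From 3 h to 24 h of LPS, most members rose, and they did so in both genotypes. In control BMDMs 19 of 35 were called higher and 1 lower, against 20.9% and 19.5% of all genes tested. In AclyM-KO BMDMs 20 were called higher and 2 lower, against 21.9% and 20.01%. The median log2 fold change over the 35 was 0.82 in control and 0.87 in AclyM-KO, where that of all genes tested was 0.04 in both. Together the transcripts that stand for the 36 members took 0.810 to 0.862% of the counts over all transcripts at 3 h and 1.43 to 1.48% at 24 h. Further transcripts of 9 members are not in this share, and they mostly had the same counts as the transcript used. The same reads may thus stand in several transcripts of a gene, and also in the counts over all transcripts. The rise was held by the class I heavy chains, where 7 of 8 were called in each genotype, and by class II, where 7 of 8 were called higher in each. Of the 10 genes of the class I light chain, loading and control, 2 were called in control and 3 in AclyM-KO. Of the 5 immunoproteasome and activator genes 2 were called in each, and of the 4 co-stimulation and checkpoint genes *Pdcd1lg2* was called higher and *Cd80* lower in each.

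**Figure D1:**
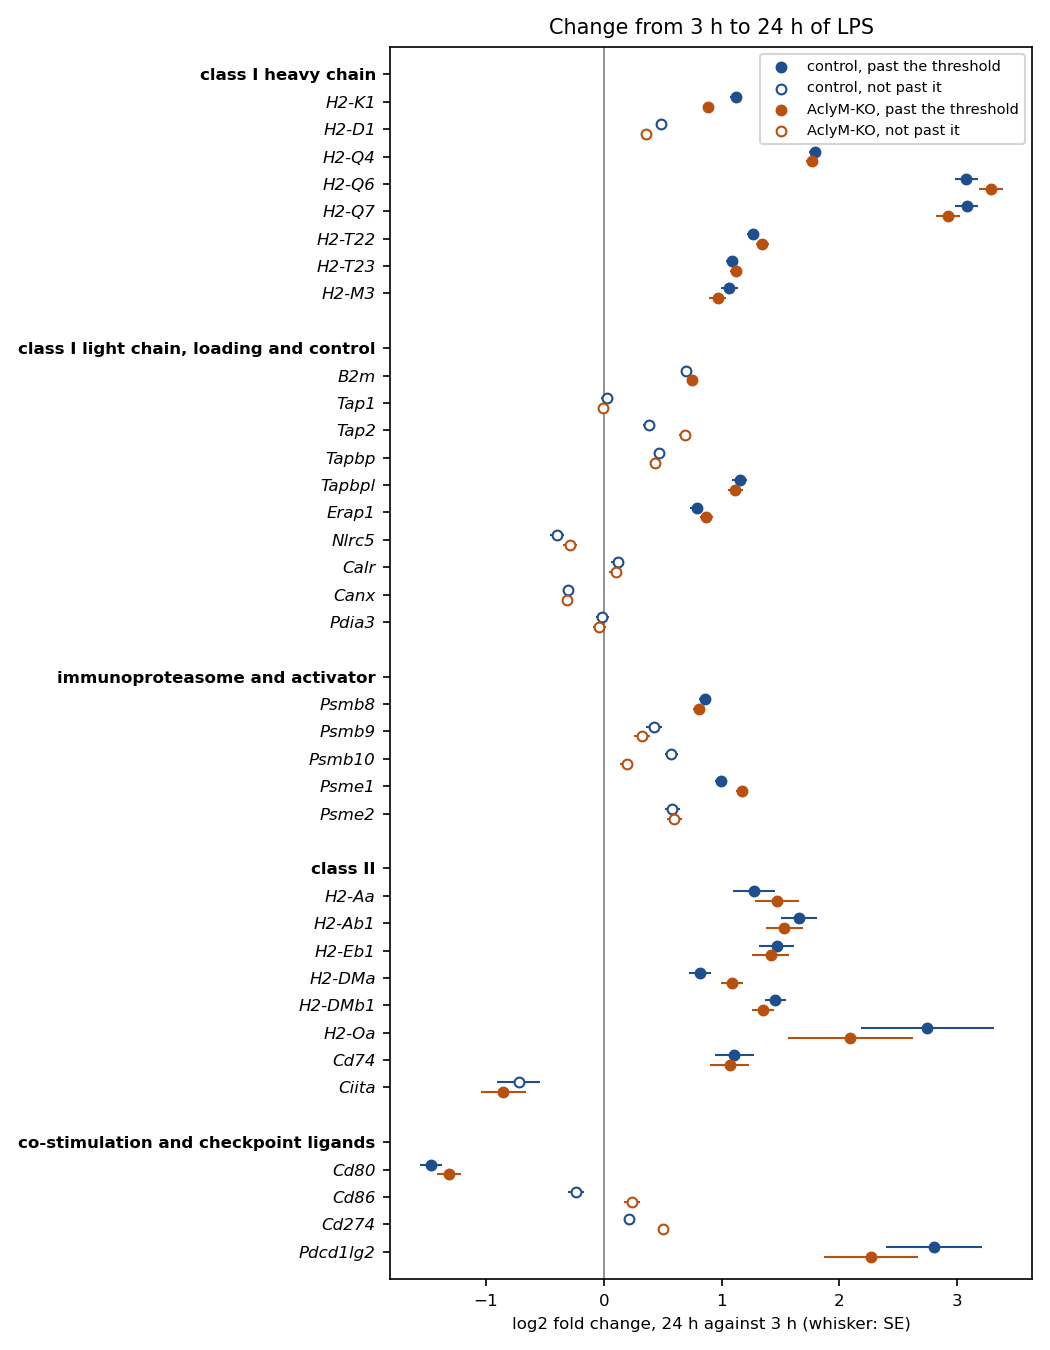
Log2 fold change from 3 h to 24 h of LPS (x axis) for the 35 members tested (y axis, grouped by role), in control (blue) and AclyM-KO (orange) BMDMs, n = 3 libraries per group. Points are edgeR estimates, whiskers are the SE, and filled points were called (adjusted p under 0.05 and log2 fold change beyond 0.75). *H2-Q6* and *H2-Q7* moved most among the class I genes (2.92 to 3.29), and *Tap1* lay at 0.03 in control and -0.0027 in AclyM-KO.

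Between genotypes the differences were small. By edgeR and by DESeq2 alike 0 of 35 members were called at 3 h and 0 of 35 at 24 h, while 16 and 14 of 35 had an unadjusted edgeR p under 0.05. At 3 h 0 of 35 members were called in either direction, against 1.41% of all genes called higher and 0.603% called lower. At the adjusted p alone 6 were higher in AclyM-KO (*H2-K1*, *H2-Q4*, *Tapbp*, *Tapbpl*, *Nlrc5* and *Psmb10*) and 2 lower (*H2-Q6* and *Psme1*), against 8.52% and 6.92% of all genes. At 24 h 0 of 35 were again called, against 0.896% higher and 0.486% lower. At the adjusted p alone 6 were higher (*Tap2*, *Tapbp*, *Tapbpl*, *Nlrc5*, *Cd86* and *Cd274*) and 3 lower (*H2-Q6*, *H2-Q7* and *H2-DMb1*), against 8.31% and 5.59%. The libraries of the genotypes did not overlap for 15 of 35 members at 3 h, where 30.1% of all genes tested did not, and for 13 of 35 at 24 h, where 33.04% did not. The genotype difference itself differed between times for 5 of 35 members at an adjusted p under 0.05, with *Tap2*, *Cd86* and *Cd274* shifted upwards (4.88% of all genes were) and *H2-K1* and *Psmb10* downwards (4.71%). The 3 h and 24 h differences and the interaction are built from the same 12 libraries. Median differences over the 35 members were 0.01 at both times. With the 13th library included, 2 of the 8 members at 3 h (*H2-Q6* and *Psmb10*) and 3 of the 5 of the interaction still passed, and 7 of the 9 at 24 h.

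**Figure D2:**
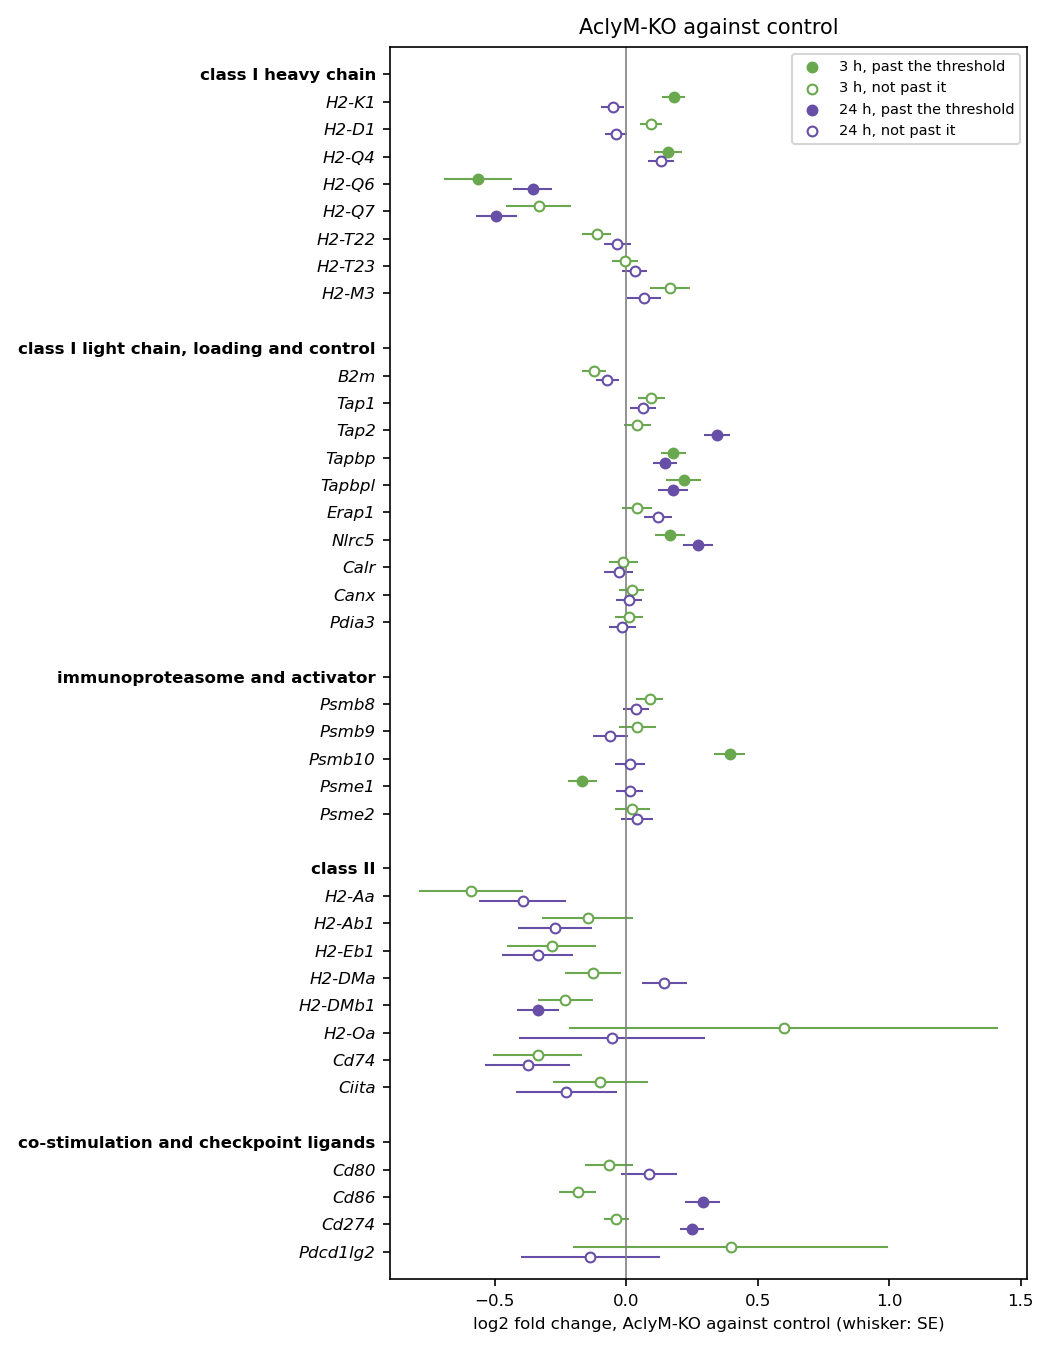
Log2 fold change of AclyM-KO against control (x axis) for the 35 members tested (y axis, grouped by role), after 3 h (green) and 24 h (purple) of LPS, n = 3 libraries per group. Points are edgeR estimates, whiskers are the SE, and filled points passed the adjusted p alone, 8 at 3 h and 9 at 24 h. The filled point farthest from 0 is that of *H2-Q6* at 3 h (-0.56), and 7 of 8 class II genes lie below 0 at each time. Of all 11942 genes tested 6094 had a log2 fold change below 0 at 3 h and 5821 at 24 h.

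Among class I heavy chains the classical *H2-K1* and *H2-D1* were the most abundant at 3 h and 24 h. *H2-K1* stood at 886, 870.4 and 847 CPM in control and 979.8, 982 and 988 CPM in AclyM-KO BMDMs at 3 h, and at 1932, 1867 and 1858 CPM in control and 1747, 1875 and 1835 CPM in AclyM-KO BMDMs at 24 h. Every 24 h library was above every 3 h library, and at 3 h all AclyM-KO libraries were above all control libraries. It rose by a log2 fold change of 1.12 (SE 0.04, adjusted p = 2.88e-20) over time in control and 0.89 (SE 0.04, adjusted p = 1.05e-17) in AclyM-KO. The genotype difference was 0.18 (SE 0.04, adjusted p = 0.00475) at 3 h and -0.05 (SE 0.04, adjusted p = 0.482) at 24 h, and the change between these was -0.23 (SE 0.06, adjusted p = 0.0146). Without AclyM-KO 24 h replicate 1 that change was -0.20 with an adjusted p of 0.0587.

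*H2-D1* stood at 1509, 1472 and 1456 CPM in control and 1620, 1519 and 1598 CPM in AclyM-KO BMDMs at 3 h, and at 2079, 2073 and 2072 CPM in control and 1963, 2052 and 2045 CPM in AclyM-KO BMDMs at 24 h. All 24 h libraries lay above all 3 h libraries, but the change of 0.49 (SE 0.04, adjusted p = 1.28e-11) in control and 0.36 (SE 0.04, adjusted p = 1.08e-08) in AclyM-KO was below the fold needed for a call. The AclyM-KO libraries were above those of control at 3 h and below them at 24 h, by 0.09 (SE 0.04, adjusted p = 0.146) and -0.04 (SE 0.04, adjusted p = 0.614), and neither passed. Per kilobase of transcript *H2-D1* was above *H2-K1* at 3 h in control (693 to 718 against 523 to 548 CPM per kb) and below it at 24 h (986 to 989 against 1148 to 1193 CPM per kb). The order turned in AclyM-KO too, from 723 to 771 against 605 to 610 CPM per kb at 3 h to 934 to 976 against 1079 to 1158 CPM per kb at 24 h. Of the 50-base windows of their transcripts 14.3% (*H2-D1*) and 8.79% (*H2-K1*) also occur in other genes, so a part of these counts cannot be assigned with certainty.

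The Qa genes *H2-Q6* and *H2-Q7*, non-classical heavy chains, had the largest rise of all class I genes. *H2-Q6* stood at 7.4, 5.66 and 5.63 CPM in control and 4.1, 3.98 and 4.57 CPM in AclyM-KO BMDMs at 3 h, and at 57.3, 52.05 and 48.99 CPM in control and 38.9, 41.4 and 43.1 CPM in AclyM-KO BMDMs at 24 h. *H2-Q7* stood at 9.88, 10.1 and 7.43 CPM in control and 6.92, 8.57 and 6.2 CPM in AclyM-KO BMDMs at 3 h, and at 79.3, 80.9 and 72.8 CPM in control and 51.4, 55.7 and 57.8 CPM in AclyM-KO BMDMs at 24 h. Both were low in every 3 h library and high in every 24 h library, and at 24 h all AclyM-KO libraries were below all control libraries for both. *H2-Q6* rose by 3.08 (SE 0.09, adjusted p = 3.39e-23) in control and 3.29 (SE 0.10, adjusted p = 5.29e-23) in AclyM-KO, and *H2-Q7* by 3.08 (SE 0.10, adjusted p = 4.83e-20) and 2.92 (SE 0.10, adjusted p = 4.21e-19). In AclyM-KO against control *H2-Q6* fell by 0.56 on the log2 scale at 3 h (SE 0.13, adjusted p = 0.00307) and by 0.36 at 24 h (SE 0.07, adjusted p = 0.000903). *H2-Q7* fell by 0.50 at 24 h (SE 0.08, adjusted p = 6.8e-05), while at 3 h its difference was -0.33 (SE 0.12, adjusted p = 0.0691). These members are not independent of each other, since 30.5% of the 50-base windows of *H2-Q6* occur in *H2-Q7*, and 36.8% and 33.5% of their windows occur in other genes of any name.

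*H2-Q4*, another Qa gene, stood at 64.4, 63.3 and 60.04 CPM in control and 67.2, 70.7 and 71.7 CPM in AclyM-KO BMDMs at 3 h, and at 226, 212 and 213 CPM in control and 238, 237 and 239.7 CPM in AclyM-KO BMDMs at 24 h. The times were far apart, and the AclyM-KO libraries lay above the control libraries at both times. Its change over time was 1.79 (SE 0.05) in control and 1.77 (SE 0.05) in AclyM-KO, and its genotype difference 0.16 (SE 0.05, adjusted p = 0.0385) at 3 h and 0.13 (SE 0.05, adjusted p = 0.064) at 24 h. The call at 3 h was lost without any 1 of 7 libraries (AclyM-KO 3 h replicate 2 or 3, AclyM-KO 24 h replicate 2 or 3, control 3 h replicate 2 or 3, control 24 h replicate 3), with an adjusted p of 0.0502 to 0.167.

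*H2-T22* stood at 114, 104 and 102 CPM in control and 97.95, 104 and 93.9 CPM in AclyM-KO BMDMs at 3 h, and at 254, 255 and 261 CPM in control and 257, 247 and 248 CPM in AclyM-KO BMDMs at 24 h. *H2-T23*, the heavy chain of Qa-1, stood at 130.2, 127 and 124 CPM in control and 122, 134 and 124 CPM in AclyM-KO BMDMs at 3 h, and at 272, 265 and 271 CPM in control and 278, 270.1 and 279 CPM in AclyM-KO BMDMs at 24 h. *H2-M3*, which presents formylated peptides, stood at 26.4, 22.6 and 22.7 CPM in control and 28.02, 27.9 and 24.6 CPM in AclyM-KO BMDMs at 3 h, and at 51.5, 46.9 and 51.5 CPM in control and 51.1, 52.5 and 53.8 CPM in AclyM-KO BMDMs at 24 h. For all 3 the 24 h libraries were above the 3 h libraries, and the ranges of the genotypes overlapped at both times. The log2 fold changes over time in control and AclyM-KO were 1.27 and 1.35 for *H2-T22*, 1.09 and 1.12 for *H2-T23*, and 1.07 and 0.97 for *H2-M3*, all called. None of the 3 passed the adjusted p between genotypes (lowest 0.145, *H2-M3* at 3 h). *H2-T22* shares 35.8% of its windows with other genes, mainly *H2-T10*, and *H2-T23* 28.8%.

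**Figure D3:**
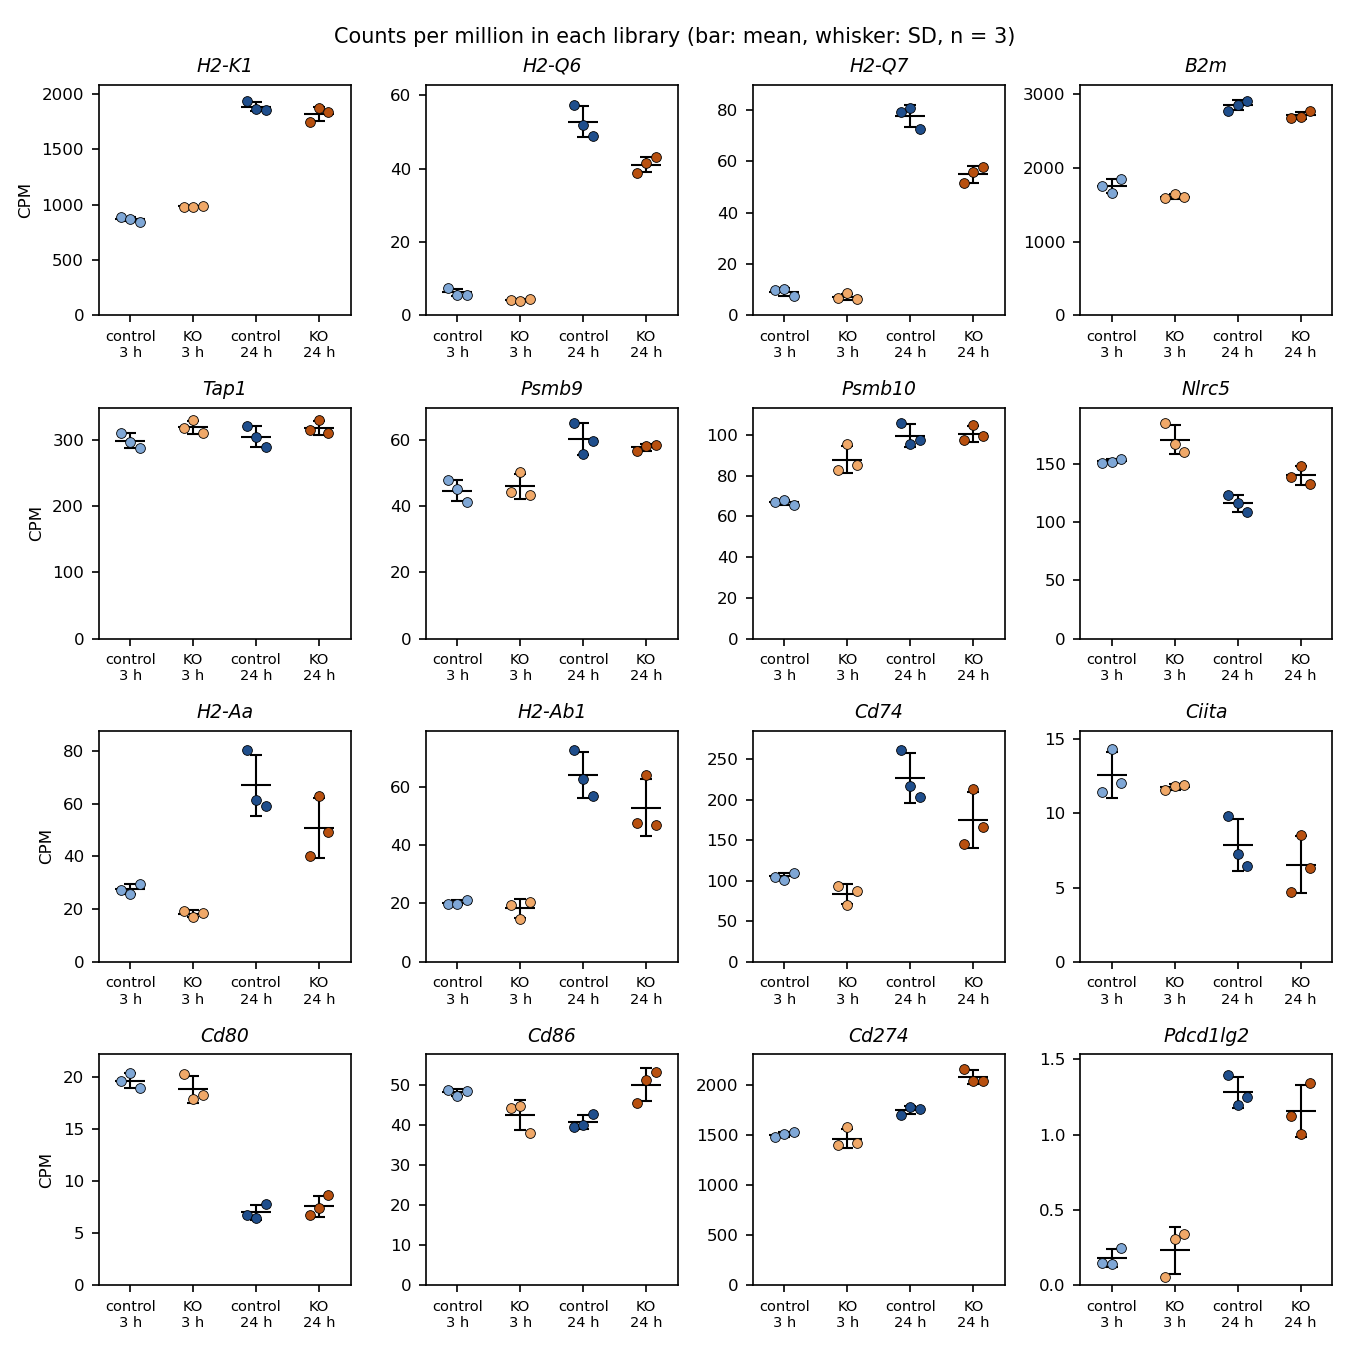
CPM (y axis, linear and starting at 0, with its own scale per gene) of 16 members in the 4 groups (x axis, where KO is AclyM-KO). Each point is 1 library, the bar is the mean and the whisker the SD, n = 3. *H2-Q6* and *H2-Q7* are the class I members with the largest fold between 3 h and 24 h, and *Ciita* and *Cd80* are lower at 24 h. For the class II genes shown, replicate 2 is the highest 24 h library in control and in AclyM-KO alike.

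The light chain *B2m* was the most abundant member per kilobase (1930 to 2144 CPM per kb in control at 3 h and 3231 to 3386 at 24 h). *B2m* stood at 1761, 1660 and 1844 CPM in control and 1591, 1647 and 1600 CPM in AclyM-KO BMDMs at 3 h, and at 2779, 2861 and 2912 CPM in control and 2673, 2694 and 2773 CPM in AclyM-KO BMDMs at 24 h. All libraries of 24 h were above those of 3 h, and the AclyM-KO libraries were the lower ones at both times. The change over time of 0.70 (SE 0.04, adjusted p = 6.89e-15) in control was just short of the fold limit and that of 0.75 (SE 0.04, adjusted p = 1.32e-15) in AclyM-KO just past it, and the interaction of 0.05 (SE 0.06, adjusted p = 0.696) did not pass. The genotype difference was -0.12 (SE 0.04, adjusted p = 0.0635) at 3 h and -0.07 (SE 0.04, adjusted p = 0.321) at 24 h.

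The peptide transporter subunits followed different courses. *Tap1* stood at 311, 297 and 289 CPM in control and 318, 330 and 310.5 CPM in AclyM-KO BMDMs at 3 h, and at 322, 305 and 290.1 CPM in control and 316, 330.5 and 311 CPM in AclyM-KO BMDMs at 24 h, with all 4 groups overlapping. Its change over time was 0.03 (SE 0.05, adjusted p = 0.595) in control and -0.0027 (SE 0.05, adjusted p = 0.964) in AclyM-KO and its genotype difference had an adjusted p of 0.218 at 3 h and 0.452 at 24 h. *Tap2* stood at 111, 105 and 107 CPM in control and 116, 111 and 106 CPM in AclyM-KO BMDMs at 3 h, and at 144, 142 and 135 CPM in control and 181, 179 and 175 CPM in AclyM-KO BMDMs at 24 h. The AclyM-KO libraries lay above all others at 24 h, while the genotypes overlapped at 3 h. *Tap2* rose over time by 0.38 (SE 0.05, adjusted p = 6.1e-08) in control and 0.69 (SE 0.05, adjusted p = 1.94e-13) in AclyM-KO, both below the fold limit. Its genotype difference was 0.04 (SE 0.05, adjusted p = 0.64) at 3 h and 0.35 (SE 0.05, adjusted p = 9.99e-06) at 24 h, and the change between them was 0.30 (SE 0.07, adjusted p = 0.00576).

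Tapasin (*Tapbp*) and the tapasin-related *Tapbpl* edit the peptides that class I takes up. *Tapbp* ranged from 562 to 595 CPM in control and 637 to 659.7 CPM in AclyM-KO at 3 h, and from 776 to 822 and 859 to 911 CPM at 24 h. *Tapbpl* stood at 26.9, 27.1 and 25.98 CPM in control and 32.2, 31.8 and 29.04 CPM in AclyM-KO BMDMs at 3 h, and at 63.2, 58.8 and 56.5 CPM in control and 65.5, 68.2 and 67.8 CPM in AclyM-KO BMDMs at 24 h. In both genes the AclyM-KO libraries were above the control libraries at each time. *Tapbpl* rose over time by 1.16 (SE 0.06) in control and 1.12 (SE 0.06) in AclyM-KO, and *Tapbp* by 0.47 (SE 0.05) and 0.44 (SE 0.05), below the fold limit. *Tapbp* was higher in AclyM-KO by 0.18 (SE 0.05, adjusted p = 0.00674) at 3 h and 0.15 (SE 0.05, adjusted p = 0.0272) at 24 h, and *Tapbpl* by 0.22 (SE 0.07, adjusted p = 0.0253) and 0.18 (SE 0.06, adjusted p = 0.039). The 24 h calls were lost without any 1 of 7 libraries for *Tapbp* (adjusted p 0.0552 to 0.139) and of 8 for *Tapbpl* (0.062 to 0.191), and the 3 h call of *Tapbpl* without any 1 of 5 (0.0504 to 0.0927). For *Tapbp* these were AclyM-KO 24 h replicates 2 and 3, control 24 h replicates 3 and 4 and the 3 control libraries of 3 h. For *Tapbpl* at 24 h they were these and AclyM-KO 24 h replicate 1, and at 3 h AclyM-KO 3 h replicates 1 and 2 and the 3 control libraries of 3 h.

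*Nlrc5*, the class I transactivator, fell over time while the heavy chains rose. *Nlrc5* stood at 151, 152 and 154 CPM in control and 185, 167 and 160.2 CPM in AclyM-KO BMDMs at 3 h, and at 123, 116 and 109 CPM in control and 138, 148 and 133 CPM in AclyM-KO BMDMs at 24 h. The 24 h libraries were below the 3 h libraries, and the AclyM-KO libraries were above those of control at each time. Its change over time was -0.39 (SE 0.06, adjusted p = 3.83e-07) in control and -0.29 (SE 0.06, adjusted p = 4.74e-05) in AclyM-KO, below the fold limit. AclyM-KO was higher by 0.17 (SE 0.06, adjusted p = 0.0491) at 3 h and 0.27 (SE 0.06, adjusted p = 0.00113) at 24 h. The 3 h call was lost without any 1 of 8 libraries (AclyM-KO 3 h replicate 1, control 3 h replicates 1 to 3, AclyM-KO 24 h replicates 1 to 3, control 24 h replicate 3), with an adjusted p of 0.0551 to 0.212.

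*Erap1*, the aminopeptidase that trims peptides in the endoplasmic reticulum, stood at 61.5, 60.5 and 58.04 CPM in control and 61.8, 64.7 and 58.8 CPM in AclyM-KO BMDMs at 3 h, and at 104, 101 and 106 CPM in control and 107, 116 and 115 CPM in AclyM-KO BMDMs at 24 h. Every 24 h library was higher than every 3 h library, and it was called in control at 0.79 (SE 0.05, adjusted p = 4.85e-14) and in AclyM-KO at 0.87 (SE 0.05, adjusted p = 4.79e-15). *Calr* ranged from 423 to 535 CPM, *Canx* from 315.0 to 419 CPM and *Pdia3* from 284 to 325 CPM over all 12 libraries. The log2 fold change of *Canx* over time was -0.30 in control and -0.31 in AclyM-KO, past the adjusted p alone, and the changes of *Pdia3* did not pass (adjusted p = 0.86 and 0.541). *Calr* passed the adjusted p in control (log2 fold change 0.12, adjusted p = 0.0475) and not in AclyM-KO (0.10, adjusted p = 0.0928), and without any 1 of 9 libraries, namely all 3 control 3 h and all 3 AclyM-KO 24 h libraries, control 24 h replicates 2 and 4 and AclyM-KO 3 h replicate 3, the first was 0.051 to 0.198. None of *Erap1*, *Calr*, *Canx* and *Pdia3* passed between genotypes.

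The immunoproteasome subunits rose over time by unequal amounts. *Psmb8* stood at 109, 104 and 99.3 CPM in control and 105, 117 and 111 CPM in AclyM-KO BMDMs at 3 h, and at 194, 185 and 189 CPM in control and 193, 194 and 196 CPM in AclyM-KO BMDMs at 24 h. *Psmb9* stood at 47.8, 45.02 and 41.2 CPM in control and 44.2, 50.3 and 43.3 CPM in AclyM-KO BMDMs at 3 h, and at 65.2, 55.6 and 59.8 CPM in control and 56.6, 58.1 and 58.4 CPM in AclyM-KO BMDMs at 24 h. Both were higher in every 24 h library than in every 3 h library, and the genotypes overlapped at each time. *Psmb8* was called at 0.86 (SE 0.05, adjusted p = 1.28e-15) in control and 0.81 (SE 0.05, adjusted p = 5.78e-15) in AclyM-KO, and *Psmb9* changed by 0.43 (SE 0.07, adjusted p = 1.41e-06) and 0.33 (SE 0.07, adjusted p = 7.91e-05), below the fold limit. *Psmb9* thus rose where *Tap1*, the gene that starts back to back with it, did not pass the test. By their GENCODE positions the genes overlap on opposite strands, *Tap1* from 34187553 on and *Psmb9* up to 34187764. The strand setting of the counting is not given, so tags there could have been counted for both.

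*Psmb10* was the immunoproteasome subunit with a genotype difference. *Psmb10* stood at 67.2, 68.04 and 65.4 CPM in control and 82.99, 95.5 and 85.05 CPM in AclyM-KO BMDMs at 3 h, and at 106, 95.4 and 97.5 CPM in control and 97.5, 105 and 99.4 CPM in AclyM-KO BMDMs at 24 h. At 3 h all AclyM-KO libraries were above all control libraries, and at 24 h they overlapped. The difference was 0.39 (SE 0.06, adjusted p = 1.95e-05) at 3 h and 0.01 (SE 0.06, adjusted p = 0.9) at 24 h, and the change between them was -0.38 (SE 0.08, adjusted p = 0.00264). Over time *Psmb10* rose by 0.57 (SE 0.06, adjusted p = 3.09e-10) in control and 0.19 (SE 0.06, adjusted p = 0.00328) in AclyM-KO, below the fold limit in both.

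*Psme1* and *Psme2* form the PA28 activator, a cap of the proteasome. *Psme1* stood at 86.4, 77.8 and 81.4 CPM in control and 71.3, 74.04 and 73.4 CPM in AclyM-KO BMDMs at 3 h, and at 166, 154 and 169 CPM in control and 165, 160.3 and 168 CPM in AclyM-KO BMDMs at 24 h. It was called over time at 0.99 (SE 0.05, adjusted p = 6.17e-17) in control and 1.17 (SE 0.05, adjusted p = 1.14e-18) in AclyM-KO, with all 24 h libraries above all 3 h libraries. At 3 h all AclyM-KO libraries lay below control, with a difference of -0.17 (SE 0.05, adjusted p = 0.0352), and at 24 h the ranges overlapped. The 3 h call was lost without any 1 of 4 libraries (AclyM-KO 3 h replicate 1 or 3, control 3 h replicate 1 or 3), with an adjusted p of 0.0784 to 0.22. Of the windows of *Psme1* 14.1% also occur in other genes, most often *Gm7776*. *Psme2* ranged from 47.0 to 52.6 CPM over the 3 h libraries and 67.2 to 81.3 CPM over the 24 h libraries, and 62.1% of its windows also occur in *Psme2b*, so its level is uncertain.

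**Figure D4:**
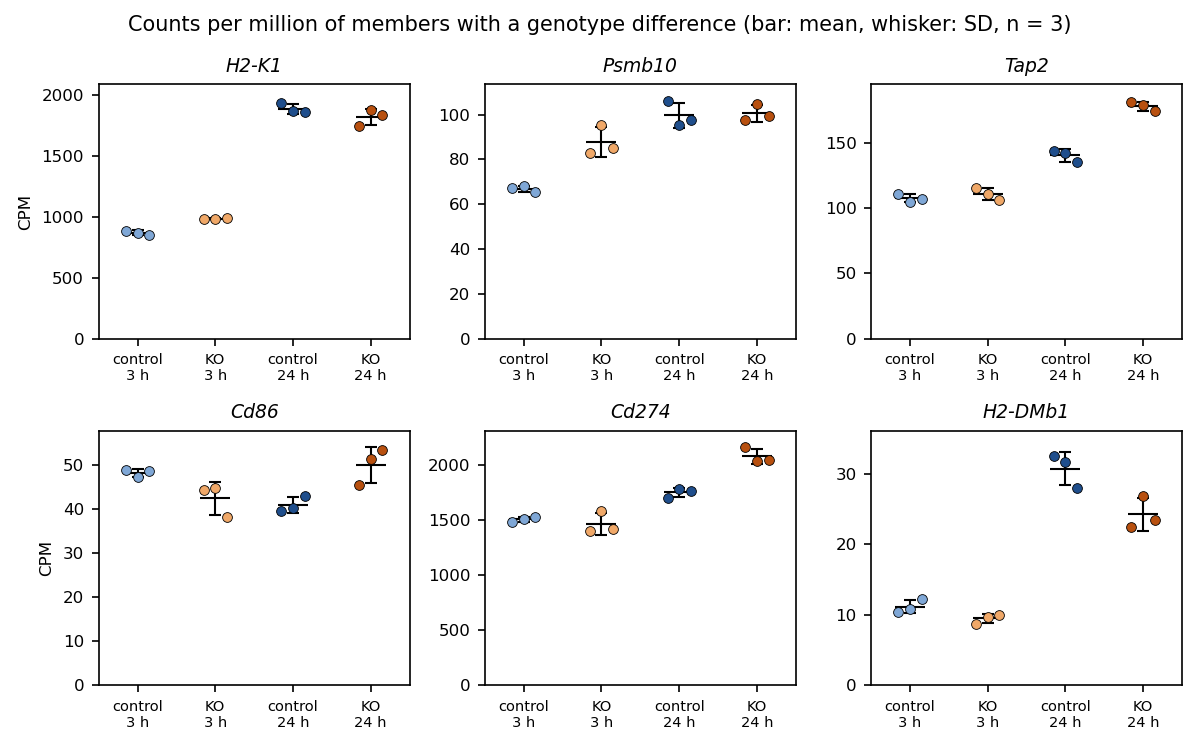
CPM (y axis, linear and starting at 0) in each library of the 4 groups (x axis, where KO is AclyM-KO) for the 5 members whose genotype difference changed between 3 h and 24 h, and for *H2-DMb1*, the class II member with a difference at 24 h. Points are libraries, bars the mean and whiskers the SD, n = 3. *H2-K1* and *Psmb10* are higher in AclyM-KO at 3 h and overlap with control at 24 h, while *Tap2*, *Cd86* and *Cd274* are higher in AclyM-KO at 24 h.

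Class II genes were low at 3 h and rose in both genotypes. *H2-Aa*, an alpha chain, stood at 27.3, 25.8 and 29.5 CPM in control and 19.3, 16.9 and 18.7 CPM in AclyM-KO BMDMs at 3 h, and at 80.2, 61.2 and 59.2 CPM in control and 39.98, 62.8 and 49.3 CPM in AclyM-KO BMDMs at 24 h. *H2-Ab1*, its beta chain, stood at 19.7, 19.6 and 21.2 CPM in control and 19.6, 14.7 and 20.6 CPM in AclyM-KO BMDMs at 3 h, and at 72.5, 62.6 and 56.9 CPM in control and 47.6, 64.02 and 47.05 CPM in AclyM-KO BMDMs at 24 h. *H2-Eb1*, a beta chain of H2-E, stood at 16.3, 14.97 and 16.4 CPM in control and 14.2, 10.4 and 14.7 CPM in AclyM-KO BMDMs at 3 h, and at 47.6, 43.7 and 41.2 CPM in control and 27.9, 42.2 and 34.7 CPM in AclyM-KO BMDMs at 24 h. All 24 h libraries were above all 3 h libraries for the 3 genes. At 24 h replicate 2 was the highest in each, in control and in AclyM-KO alike. They were called at 1.28 (SE 0.18, adjusted p = 0.000111), 1.66 (SE 0.16, adjusted p = 2.38e-06) and 1.47 (SE 0.15, adjusted p = 1.56e-06) in control, and at 1.47, 1.53 and 1.42 in AclyM-KO. The invariant chain *Cd74* stood at 105, 101 and 109.9 CPM in control and 92.98, 69.9 and 87.7 CPM in AclyM-KO BMDMs at 3 h, and at 262, 217 and 203 CPM in control and 145, 214 and 167 CPM in AclyM-KO BMDMs at 24 h. Replicate 2 was again the highest in both genotypes at 24 h. *Cd74* was called at 1.11 (SE 0.17, adjusted p = 0.000227) in control and 1.07 (SE 0.17, adjusted p = 0.000307) in AclyM-KO. Its level per kilobase in control at 24 h was 161 CPM per kb, above those of *H2-Aa* (59.3) and *H2-Ab1* (52.8 CPM per kb).

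*H2-DMa* and *H2-DMb1* form H2-M, which exchanges peptides on class II, and *H2-Oa* is a subunit of its inhibitor H2-O. *H2-DMa* stood at 10.2, 12.3 and 11.1 CPM in control and 10.6, 10.4 and 9.9 CPM in AclyM-KO BMDMs at 3 h, and at 22.8, 18.2 and 18.7 CPM in control and 21.5, 23.5 and 20.7 CPM in AclyM-KO BMDMs at 24 h. *H2-DMb1* stood at 10.4, 10.8 and 12.2 CPM in control and 8.71, 9.71 and 9.95 CPM in AclyM-KO BMDMs at 3 h, and at 32.5, 31.7 and 28.01 CPM in control and 22.4, 26.9 and 23.4 CPM in AclyM-KO BMDMs at 24 h. The 24 h libraries were the higher ones for both, and for *H2-DMb1* the AclyM-KO libraries were below the control libraries at each time. *H2-DMa* was called at 0.82 in control and 1.09 in AclyM-KO, and *H2-DMb1* at 1.46 and 1.35. *H2-Oa* had 4, 3 and 0 counts in the control and 8, 2 and 1 counts in the AclyM-KO libraries of 3 h. At 24 h it had 22, 15 and 53 counts and 24, 21 and 14 counts. The 53 counts are those of control 24 h replicate 4, the deepest library (59577343 counts). In CPM the 24 h libraries stood at 0.902, 0.64 and 0.809 in control and 0.901, 0.8445 and 0.537 in AclyM-KO. *H2-Oa* was called over time in both genotypes from these few counts, at 2.75 (SE 0.56) and 2.09 (SE 0.53). *H2-DMb2* was at 0 to 13 counts, and 27.2% of the windows of *H2-DMb1* occur in it.

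*Ciita*, the class II transactivator, fell while its known targets rose. *Ciita* stood at 11.4, 14.3 and 12.02 CPM in control and 11.6, 11.8 and 11.9 CPM in AclyM-KO BMDMs at 3 h, and at 9.8, 7.29 and 6.43 CPM in control and 4.73, 8.56 and 6.33 CPM in AclyM-KO BMDMs at 24 h. The 24 h libraries were all below the 3 h libraries, and the genotypes overlapped. The log2 fold change over time was -0.72 (SE 0.18, adjusted p = 0.00247) in control, just short of the fold limit, and -0.85 (SE 0.19, adjusted p = 0.00104) in AclyM-KO, where it was called. The interaction was -0.13 (SE 0.26, adjusted p = 0.827).

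Between genotypes 7 of 8 class II genes had a negative log2 fold change at each time, but only *H2-DMb1* at 24 h passed the adjusted p, at -0.33 (SE 0.08, adjusted p = 0.00409). Of all 11942 genes tested 6094 had a negative log2 fold change at 3 h and 5821 at 24 h. The median over the 8 class II genes was -0.19 at 3 h and -0.30 at 24 h, where those of all genes tested were -0.0051 and 0.0053. *H2-Aa* differed by -0.59 (SE 0.20, adjusted p = 0.0842) at 3 h and -0.39 (SE 0.17, adjusted p = 0.167) at 24 h, and *Cd74* by -0.34 (SE 0.17, adjusted p = 0.248) and -0.38 (SE 0.16, adjusted p = 0.179). At 3 h the AclyM-KO libraries of *H2-Aa*, *H2-Eb1*, *H2-DMb1* and *Cd74* lay below all control libraries. These were 4 of the 8, where 30.1% of all genes tested did not overlap in either direction. Summed over the class II members, AclyM-KO libraries held 144 to 178 CPM against 199.6 to 212 CPM at 3 h, without overlap, and 310.2 to 442 CPM against 415 to 528 CPM at 24 h, with overlap. *Cd74* was a large part of these sums. At 3 h it held a mean of 105 of 204 CPM in control and 83.5 of 165 CPM in AclyM-KO. B cell markers summed to 7.25 to 8.28 CPM in control and 5.42 to 7.07 CPM in AclyM-KO at 3 h and to 6.23 to 6.76 and 4.39 to 5.03 CPM at 24 h (6 of 7 listed genes had a transcript, nearly all counts were from *Cd22*, and *Pax5* was at or near 0). Dendritic cell markers (8 of 8) summed to 2.69 to 3.18 and 3.28 to 4.23 CPM at 3 h and to 4.06 to 5.51 and 6.42 to 6.96 CPM at 24 h, mainly *Itgae*, *Xcr1* and *Ccr7*, with *Flt3* and *Cd209a* at or near 0. T cell markers summed to 32.4 to 34.3 and 23.4 to 24.0 CPM at 3 h and to 9.46 to 10.4 and 5.87 to 6.68 CPM at 24 h, mainly from *Cd4* and *Lck* with *Cd3e*, *Cd3d* and *Cd3g* near 0 (6 of 7 listed genes had a transcript). The B and T cell sums were thus lower in AclyM-KO at both times without overlap, and the dendritic cell sum was higher. The part of these genes and cells in the class II values was not tested, and in these bulk libraries fewer cells of a type and less RNA per cell cannot be told apart.

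The co-stimulatory ligands *Cd80* and *Cd86* followed different courses. *Cd80* stood at 19.6, 20.4 and 18.9 CPM in control and 20.3, 17.8 and 18.3 CPM in AclyM-KO BMDMs at 3 h, and at 6.68, 6.48 and 7.74 CPM in control and 6.68, 7.36 and 8.6 CPM in AclyM-KO BMDMs at 24 h. It was lower in every 24 h library, with a log2 fold change of -1.47 (SE 0.10, adjusted p = 1.25e-14) in control and -1.31 (SE 0.10, adjusted p = 3.6e-13) in AclyM-KO, and the genotypes overlapped at each time. *Cd86* stood at 48.95, 47.4 and 48.6 CPM in control and 44.4, 44.96 and 38.2 CPM in AclyM-KO BMDMs at 3 h, and at 39.6, 40.2 and 42.9 CPM in control and 45.6, 51.4 and 53.5 CPM in AclyM-KO BMDMs at 24 h. At 3 h the AclyM-KO libraries of *Cd86* were below all control libraries and at 24 h above them. Its change over time was -0.24 (SE 0.07, adjusted p = 0.00275) in control and 0.24 (SE 0.07, adjusted p = 0.00253) in AclyM-KO, opposite in sign and both below the fold limit. The genotype difference was -0.18 (SE 0.07, adjusted p = 0.0737) at 3 h and 0.29 (SE 0.07, adjusted p = 0.00307) at 24 h, and the change between them was 0.47 (SE 0.10, adjusted p = 0.00157), the largest of the 5 members that passed.

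*Cd274* (PD-L1) and *Pdcd1lg2* (PD-L2) are the ligands of the inhibitory receptor PD-1. *Cd274* stood at 1482, 1510 and 1531 CPM in control and 1403, 1580 and 1420 CPM in AclyM-KO BMDMs at 3 h, and at 1706, 1789 and 1764 CPM in control and 2163, 2044 and 2046 CPM in AclyM-KO BMDMs at 24 h. The AclyM-KO libraries at 24 h were above all others. *Cd274* rose over time by 0.22 (SE 0.05, adjusted p = 0.000142) in control and 0.51 (SE 0.05, adjusted p = 4.92e-11) in AclyM-KO, below the fold limit. Its genotype difference was -0.04 (SE 0.05, adjusted p = 0.649) at 3 h and 0.25 (SE 0.05, adjusted p = 0.000372) at 24 h, with a change of 0.29 (SE 0.07, adjusted p = 0.00497) between them. *Pdcd1lg2* had 3, 3 and 5 counts in control and 1, 7 and 7 counts in AclyM-KO at 3 h, and 34, 28 and 82 and 30, 25 and 35 counts at 24 h. All its 24 h libraries were higher (1.01 to 1.39 CPM against 0.0512 to 0.337 CPM), and it was called over time at 2.80 (SE 0.41) in control and 2.27 (SE 0.40) in AclyM-KO, from few counts at 3 h. No genotype difference of *Pdcd1lg2* passed (adjusted p = 0.721 and 0.789).

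Other genes of the same pathways were taken from lists of 83 symbols with a transcript. The shares to set beside their counts over time in control are 20.9% of all genes called higher and 19.5% called lower. There, 5 of 7 other class I and class I-like genes were called higher and 0 lower, led by *H2-T24* (3.04), *H2-Q10* (1.27) and *H2-M2* (1.21 on the log2 scale). Of 17 constitutive proteasome genes 6 were called higher and 0 lower, with *Psmb5* (1.57), *Psmb3* (1.19) and *Psma7* (1.08) in front. The median of that list was 0.69, beside 0.58 for the immunoproteasome and activator genes. Of 11 genes of glycoprotein folding and translocation 1 rose (*Prkcsh*, 0.76) and 1 fell (*Uggt1*, -0.97), and the next largest change was that of *Ganab* (-0.60), short of the fold limit. Of 10 endosomal and class II processing genes 2 rose (*Marchf1*, an E3 ligase that lowers surface class II, 1.31, and *Ctsz*, 1.03) and 1 fell (*Ctsl*, -1.05). Of 17 regulators of MHC genes 3 rose and 6 fell, the steepest falls being those of *Irf8* (-2.56), *Socs1* (-2.38) and *Irf1* (-2.15). The other co-stimulation and checkpoint ligands went down, 9 of 11 called lower and 0 higher, with *Cd83* at -5.51, *Tnfsf9* at -3.71 and *Tnfsf4* at -3.65. Between genotypes 1 of the 73 genes of these lists that were tested was called, where 1.41% of all genes were called higher at 3 h. This was *Tnfsf18* at 3 h, which stood at 0.745, 0.608 and 0.449 CPM in control and 1.28, 1.57 and 1.25 CPM in AclyM-KO, a log2 fold change of 1.19 (SE 0.35, adjusted p = 0.0185). It rests on few counts, 142 over the libraries.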

How the data were processed

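RNA-seq was measured in BMDMs of 4 groups. Per the labels and the study's methods, the authors built strand-specific mRNA libraries (KAPA mRNA HyperPrep), sequenced them on a HiSeq instrument, aligned reads to mm10 with STAR 2.5.2b and summed tags per RefSeq transcript with HOMER. CASAVA 1.8.2 is also named in the submitters' processing notes. The deposited values are raw counts, not normalized. The strand and isoform setting of the counting is not given in the sources used here, so overlapping and antisense genes could share tags. Of 35745 transcripts, 35440 were matched to symbols through RefSeq and 35628 after GENCODE, and the 117 others held 1.13% of counts and stayed in the library sizes. Of the 36 members 9 had several transcripts, mostly with equal counts.

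Counts of 12 libraries were normalized by TMM, filtered with filterByExpr (19621 transcripts left) and fitted with edgeR 4.0.16 (robust quasi-likelihood, R 4.3.3, limma 3.58.1) as 4 groups without covariates. P-values were adjusted over all transcripts tested, and a gene stands for its transcript with the highest total. The fit was tested on simulated data. DESeq2 1.42.0 and other settings were tried as alternatives. SEs were derived from each fold change and its F value. Replicate libraries differed by more than sampling noise (chi-square per degree of freedom 2.66 to 12.1), so none was counted as a duplicate. Read sharing was measured with 50-base windows of GENCODE transcripts. Control 24 h replicate 1 was left out. The members and lists were chosen with earlier results of these data known. Named genes were all members, with values per library for those called in any contrast and for key members of each role. Genes of the pathway lists were named when called between genotypes or when among the 3 of their list with the largest change over time in control. Those in the closing section outside this rule were chosen after their values were seen.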

Additional observations from a re-analysis of the deposited data

Results flagged for a closer look

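For 5 members the genotype difference changed between 3 h and 24 h by the interaction test, 3 of 35 upwards and 2 downwards, where 4.88% and 4.71% of all genes tested did, so the count is near the share of all genes. The change was -0.23 for *H2-K1*, 0.30 for *Tap2*, -0.38 for *Psmb10*, 0.47 for *Cd86* and 0.29 for *Cd274* on the log2 scale, in the direction from 3 h to 24 h. For *Cd86* all 3 AclyM-KO libraries were below control at 3 h and above control at 24 h. The AclyM-KO libraries of *H2-D1* were above control at 3 h and below at 24 h, and its interaction had an edgeR adjusted p of 0.179.

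Of the 73 pathway genes tested 8 passed the same test, 5 upwards and 3 downwards, again near the share of all genes, and they are named here after their values were seen. The change was -0.61 for *H2-T24* and -0.65 for *H2-M2*, both class I-like heavy chains, and -0.33 for the lysosomal protease *Ctsd*. It was 0.29 for *Nfya* and 0.47 for *Nfyb*, subunits of the factor that binds the CCAAT box, and 0.22 for *Stat2*, a factor of the interferon response. *Cd40* (0.43) and *Cd83* (0.31), both co-stimulatory molecules, changed upwards.

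Control 24 h replicate 1, which entered no comparison, held 307 counts of the transcripts that stand for the members, in 23 of the 36. These were 0.891% of its 34467 counts over all transcripts.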

How the results depend on the processing

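0 of 35 members were called between genotypes at either time under every alternative run, including all 13 libraries, DESeq2, other filters and leaving out each library in turn. With all 13 libraries the count at the adjusted p fell from 8 to 2 at 3 h, and the interaction count from 5 to 3. Leaving out 1 library gave 5 to 10 members at the adjusted p at 3 h (5 without control 3 h replicate 1 or 3) and 7 to 11 at 24 h, 20 to 21 called over time in control, 21 to 22 in AclyM-KO and 4 to 6 for the interaction. Deviations of same-numbered libraries from their group means correlated by -0.018 to 0.099. Differently numbered libraries were not compared in this way, so whether the numbers pair the libraries was not tested. With the replicate block 8 members passed the adjusted p at 3 h and 7 at 24 h, 5 passed the interaction, and 20 and 22 were called over time. In that fit control 24 h replicate 4, the only library of its number, has its own term, so control at 24 h rests on replicates 2 and 3. The 87 results of single members at an adjusted p under 0.05 in the main fit were followed under the alternatives. Of their 1733 values, 1658 kept direction and an adjusted p under 0.05, 75 lost the latter and 0 reversed. Results that passed only under an alternative, and calls lost by the fold limit, are not in these counts. With all 13 libraries *H2-K1*, *H2-Q4*, *Tapbp*, *Tapbpl*, *Nlrc5* and *Psme1* at 3 h (edgeR adjusted p 0.0618 to 0.381), *Tapbp* (0.11) and *Tapbpl* (0.077) at 24 h and the interactions of *H2-K1* (0.635) and *Cd274* (0.0622) no longer passed. With the replicate block *Tapbp* (adjusted p = 0.14) and *Tapbpl* (0.207) at 24 h and *Calr* over time in control (0.365) did not pass. Without a filter on low counts *H2-Q4* (0.0662) and *Psme1* (0.0547) at 3 h and *Tapbp* (0.113) and *Tapbpl* (0.119) at 24 h did not pass, and by DESeq2 *Nlrc5* at 3 h (0.0613) did not. The 3 h calls of *H2-Q4*, *Tapbpl*, *Nlrc5* and *Psme1* were also lost with the 6 libraries of the 3 h groups alone (0.067 to 0.0984), and the cause was not tested. *H2-Oa* and *Pdcd1lg2* rest on few counts at 3 h.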

Other observations

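The regulators of MHC genes held 7 genes past the adjusted p between genotypes at 3 h (1 higher, 6 lower) and 5 at 24 h (2 higher, 3 lower), of 17 tested, all below the fold limit. Of all genes tested 8.52% were higher and 6.92% lower at 3 h, and 8.31% and 5.59% at 24 h. The genes that follow were named after their values were seen. *Socs1*, an inhibitor of cytokine signalling, was higher in AclyM-KO by 0.52 (SE 0.07, adjusted p = 3.78e-06) at 3 h and 0.37 (SE 0.08, adjusted p = 0.0023) at 24 h. *Ifngr1*, a chain of the interferon-gamma receptor, differed by -0.26 (SE 0.06, adjusted p = 0.00142) and -0.40 (SE 0.06, adjusted p = 1.09e-05). Of the 11 other co-stimulation and checkpoint ligands tested, 2 were higher and 1 lower past the adjusted p at each time. Among them, *Cd40* was higher in AclyM-KO at 24 h by 0.46 (SE 0.06, adjusted p = 6.25e-07) and did not pass at 3 h, at 0.03 (SE 0.05, adjusted p = 0.801). Of the 10 endosomal and class II processing genes tested, 1 was higher and 3 lower past it at 3 h. At 24 h 1 was higher and 4 lower. Of these genes *Marchf1* differed by -0.54 (SE 0.07, adjusted p = 2.23e-05) at 3 h and -0.27 (SE 0.07, adjusted p = 0.0104) at 24 h. *Ctss*, the protease that cleaves the invariant chain, differed by -0.22 (SE 0.05, adjusted p = 0.00164) and -0.16 (SE 0.05, adjusted p = 0.018).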
